A study of Nothobranchius furzeri with 8 samples.

Results

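The 100 longest genes expressed in the brain of the turquoise killifish, *Nothobranchius furzeri*, were compared between wild and captive fish. The rule for the members used length and level. Length here is that of the transcript of a gene, not the span of the gene in the genome. It was derived from the ratio of RPM (reads scaled to the library total) to RPKM (RPM per kilobase of transcript). The library with the largest RPM was used for this. Among the genes with a mean RPM of at least 5 over the 8 libraries, the 100 longest were taken, and 1 gene, Nfu_g_1_023447, was left out of the ranking by the rule. This gene was 9890 nt long and 530 genes were longer, so that leaving it out changed no member. The members were thus 100 of 14164 genes ranked and of 26739 genes in the table. Their lengths ranged from 14435 to 88546 nt, with a median of 16397.5 nt.

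Whole brains of 4 wild and 4 captive male fish were sequenced as directional poly(A) libraries with single-end reads. The wild fish came from the population A41 (strain label MZM_A41) and were 39 days old after hatching, and the captive fish, aged 35 days by the labels, belonged to strain MZM-0410. Wild brains were dissected in the field and kept in RNAlater before freezing, whereas captive brains were frozen on dry ice, so that origin, strain, age, feeding and storage all differed between the groups and cannot be told apart. Each library is 1 fish, and fish are named here after their numbers in the labels. The wild fish are 3, 5, 7 and 11, and the captive fish are called A, B, C and D in the order of their numbers.

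Many, but not all, very long transcripts in the brain encode giant proteins. Among these are linkers that tie membranes and organelles to the cytoskeleton, motor subunits and scaffolds of the presynaptic active zone. Others are endocytic receptors, atypical cadherins, ubiquitin ligases and chromatin regulators. Neurons, with their long axons and many synapses, use many of these proteins. Poly(A) selection captures an mRNA by its 3′ end, so that reads over the rest of a long mRNA depend on the molecule being intact up to the tail.

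Total counts per library were between 11814586 and 14541119, and replicates differed from each other by more than counting error, with a chi-square per gene between 6.72 and 14.5. Levels are given as CPM, that is counts scaled to library totals corrected by TMM, and every fold change is that of wild over captive fish. RNA integrity, as measured by the study, was lower in every wild fish than in every captive fish. Summed markers of mature neurons, led by SNAP25 and ELAVL3, lay between 4617 and 4969 CPM in wild and between 5145 and 5684 CPM in the captive fish, with 7 of 16 genes lower and 3 higher. Summed markers of radial glia and astrocytes, led by S100B and FABP7, lay between 5325 and 7304 CPM in wild and between 3981 and 5398 CPM in the captive fish, with 4 of 7 genes higher and 2 lower. The groups overlapped in the glial sums, whereas in the neuronal sums every wild fish was below every captive fish. Summed markers of erythrocytes, led by SLC4A1 and ALAS2, lay between 100.6 and 122 CPM in wild and between 156 and 193 CPM in the captive fish, with 1 of 3 genes higher and 2 lower. The only eye and pineal marker tested, RPE65, was higher, between 28.6 and 31.9 CPM in wild and between 17.0 and 19.1 CPM in the captive fish. Endothelial markers also overlapped, at 86.2 to 110.5 CPM in wild and 84.5 to 100.5 CPM in the captive fish, with 1 of 4 genes higher and 1 lower. The only microglial marker tested, CD74, was higher by the edgeR call but overlapped, at 6.03 to 17.3 CPM in wild and 5.94 to 7.41 CPM in the captive fish. Markers could be found only through the symbols used in the study. The 11 symbols of radial glia and astrocytes gave 7 genes, and the 9 microglial symbols gave 1. Among all tested genes with a symbol, 33.4% were lower and 32.5% higher in wild fish. No marker of these lists was at 0 in all libraries, and the part of cell composition in the results was not tested. In bulk tissue, fewer cells of a type and less RNA per cell cannot be told apart.

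Long genes were mostly lower in wild brains. Of the 100 members, 66 were lower and 3 were higher in wild fish at an adjusted p under 0.05 from the quasi-likelihood test of edgeR, and 31 did not pass. Only through the captive fish did 2 of the lower members, Nfu_g_1_019261 and Nfu_g_1_017699, reach the mean RPM of 5, and of the other 98 members 64 were lower and 3 higher. Among all 19517 genes tested, 21.8% were lower and 19.8% were higher, 41.6% in all. Among the tested genes with a mean RPM of at least 5, 24.4% were lower and 24.0% were higher, 48.4% in all. The median log2 fold change of the members was -0.47, with quartiles of -0.74 and -0.12, against a median of 0.04 over all genes tested. The 3 members that were higher were FAT3 (Nfu_g_1_003034), CSMD2 and ANKRD11. The lower members fell by moderate amounts. Their median linear ratio was 0.655, and 11 of them were below captive fish by more than 2-fold. Among the 64 lower members that reached the mean RPM of 5 in both groups, the median ratio was 0.663 and 9 fell by more than 2-fold. In a test against a change of 1.5-fold 23 members were lower and none higher, compared with 7.15% lower and 0.815% higher (7.97% in either direction) of all genes. DESeq2 gave the same counts of 66 lower and 3 higher members, with 22.3% lower and 18.8% higher (41.1% in either direction) over all genes. With upper quartile scaling 63 members were lower and 6 higher, against 19.4% and 25.9% (45.3% in either direction).

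**Figure D1:**
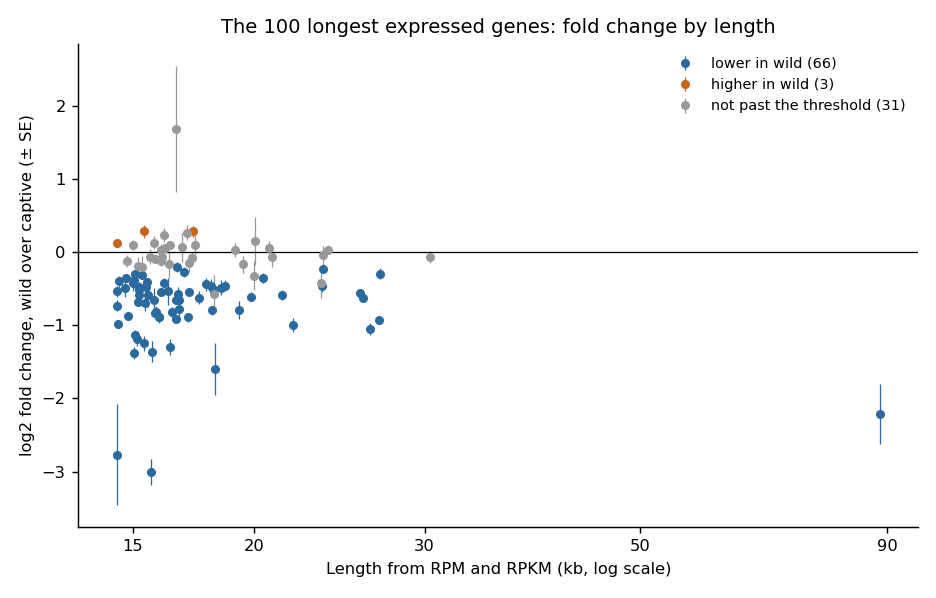
The log2 fold change of wild over captive fish (vertical axis, with bars for the standard error) is plotted against length in kb (log scale) for each of the 100 longest expressed genes, coloured by the edgeR call at an adjusted p under 0.05. Most points lie below 0 over the whole range of length, 66 of them past the threshold, and the single point at 88546 nt is Nfu_g_1_019261.

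The wild and captive fish did not overlap in 66 members. In 63 of these every wild fish was below every captive fish, and in 3 every wild fish was above. For the 98 members that reached the mean RPM of 5 in both groups, these counts were 61 and 3. Over all genes tested the groups did not overlap in 39.8%, with wild fish below in 20.7% and above in 19.2%. The members were better covered than most genes. All 100 had at least 1 count in each library, the lowest count was 14, and the median of their mean counts was 1752. Their median RPM was 129, against 30.2 over the genes ranked. Of 58 members with a mean RPM of at least 100, 45 were lower, compared with 17 of 31 members between 20 and 100 RPM and 4 of 11 members under 20 RPM. These 4 include Nfu_g_1_019261 and Nfu_g_1_017699, which reached the mean RPM of 5 only through the captive fish, so that their falls were favoured by the rule. Over all genes ranked, the lower share at these levels was 31.8%, 24.1% and 21.4%. Whether the share of members depends on level was not tested.

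The summed share of counts on the members gave the same picture in each fish. In wild fish 3, 5, 7 and 11 the members took 1.51%, 1.595%, 1.56% and 1.61% of all counts. In captive fish A, B, C and D they took 2.07%, 2.24%, 2.16% and 2.19%. Every captive fish was above every wild fish, with means of 2.16% ± 0.0706 (SD, n = 4) and 1.57% ± 0.0476 (SD, n = 4). Without the 5 members of highest counts the means were 1.66% ± 0.0703 in captive and 1.24% ± 0.0437 in wild fish, and the groups still did not overlap. Since these shares are sums over genes chosen with earlier results known, they were given no test.

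Fish of the same group also differed from each other in the level of the members as a set. Of the 100 members, 72 were below the mean of the wild group in wild fish 3 and 28 in wild fish 11, compared with 46 in wild fish 5 and 52 in wild fish 7. In the captive group 76 members were below the mean in fish A and 67 in fish C, but 29 in fish B and 35 in fish D. The median deviation of the members from their group mean ran from -0.07 in captive fish A to 0.07 in captive fish B on the log2 scale, while for all genes ranked it lay between -0.02 and 0.02 in every fish. In the 1416 longest of the ranked genes, which include the members, it ran from -0.05 in captive fish A to 0.03 in wild fish 11. RNA integrity also differed between fish of the same group, and its part in these deviations was not tested. Gene by gene the median spread was near that of all genes ranked, although these had fewer counts, with a median of 411 against 1752. Genes of matched level were not compared. The median SD within groups was 0.118 in wild and 0.127 in captive fish on the log2 scale for the members, and 0.131 and 0.119 for all genes ranked.

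**Figure D2:**
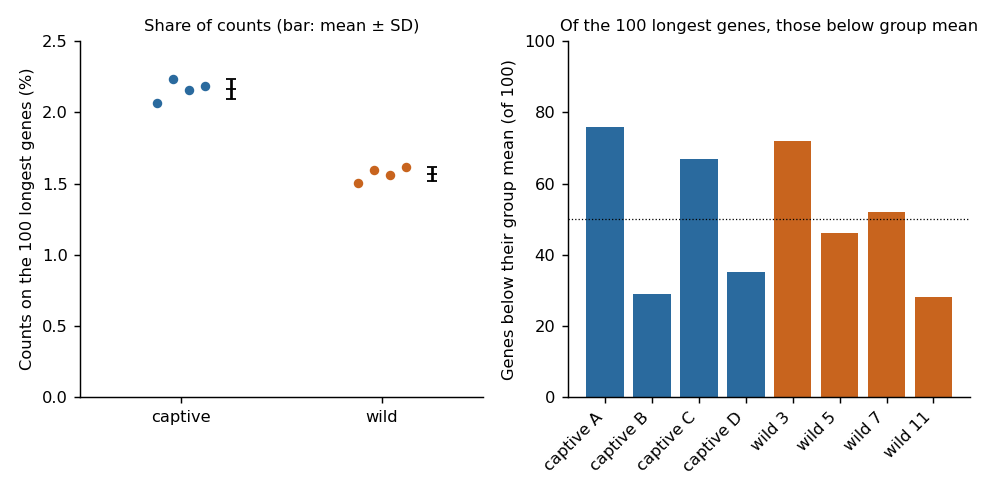
The left panel plots the percent of all counts that fell on the 100 longest genes in each fish, with the mean and SD of each group (n = 4), and the right panel the number of these genes, of 100, that were below the mean of their own group in each fish, with a dotted line at 50. The 4 captive fish sit between 2.07% and 2.24%, all above the 4 wild fish between 1.51% and 1.61%, and captive fish A and wild fish 3 have the most genes below their group mean, 76 and 72.

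The excess of lower genes was not limited to the 100 longest, but among the ranked genes it was confined to the longer ones. Ranked genes were divided by length into 10 bins of equal number. In the bin of the shortest genes, with a median of 549 nt, 36.1% were higher and 10.8% lower in wild fish. In the bin of the longest, from 7545 nt and holding all 100 members, 6.003% were higher and 55.1% lower. In bins 2 to 7 between 16.7% and 23.3% were lower, and each of these bins had more higher than lower calls. Bin 8, with 23.3% lower and 17.2% higher, was still within this range of lower calls, but had more lower than higher calls. The rise in lower calls was seen in bins 9 and 10, with 37.0% and 55.1% lower. With upper quartile scaling bin 8 had 19.1% lower and 24.8% higher. Under that scaling bins 9 and 10 had 31.2% and 49.2% lower, against 18.5% and 9.68% higher.

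The genes next to the members in length were counted in the same way. Of the 100 genes that followed the members in length, 64 were lower and 3 higher, with a median log2 fold change of -0.38. Of the 300 genes after those, 165 were lower and 14 higher, with a median of -0.30. Among the members themselves length and fold change had a Spearman correlation of 0.09 (n = 100 genes, which are not independent), compared with -0.24 over the ranked genes. The limit of length fell between neighbours of mixed values. Just inside it were Nfu_g_1_017699 at 14453 nt with a log2 fold change of -2.77 (-1.725 without captive fish C), RP11-2C24.9 at 14442 nt with -0.73 and ANKRD11 at 14435 nt with 0.13. Just outside it were RAPH1 at 14422 nt with 0.10, Nfu_g_1_024097 at 14298 nt with -0.37 and SPEN at 14293 nt with -0.37.

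**Figure D3:**
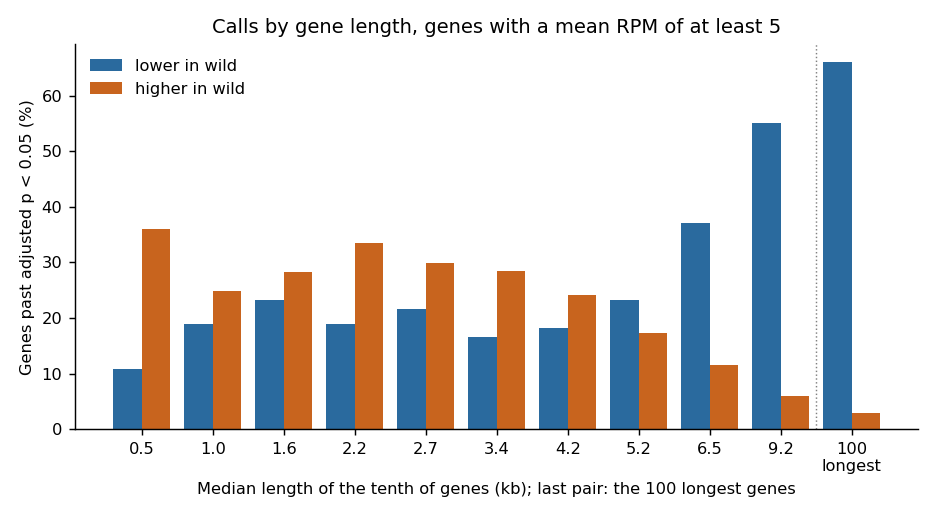
The percent of genes lower (blue) and higher (orange) in wild fish at an adjusted p under 0.05 is plotted for 10 bins of equal number of genes with a mean RPM of at least 5, ordered by length and labelled with the median length in kb, and for the 100 longest genes at the right. Lower calls go from 10.8% in the bin of the shortest genes to 55.1% in that of the longest and 66% in the 100 longest, while higher calls go from 36.1% to 6.003% and 3%.

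The trend of fold change over length was also removed from the data, which by construction brings genes of any length near a median of 0. The trend was a smooth curve of the log2 fold change on length over all genes tested, and at the members it was between -0.96 and -0.41, with a median of -0.45. After its removal 28 members were higher and 28 lower in wild fish, against 15.2% higher and 20.8% lower (36.0% in either direction) among all genes tested, and the median log2 fold change was 0.01. Of the 69 calls, 31 kept their direction and threshold and 4 passed in the opposite direction. The fold changes given for single genes below are those without this removal.

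With the RNA integrity of each fish as a further term in the fit, 2 members were lower and none was higher, against 0.205% lower and 0.0307% higher (0.236%, or 46 genes, in either direction) of all genes tested. These 2 were DST (Nfu_g_1_012338) and Nfu_g_1_011746. The median log2 fold change of the members was then -0.26. Because integrity did not overlap between the groups, this fit has little information to separate both terms.

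Symbols were found for 62 of the 100 members in the supplementary tables of the study. A table of genes selected on these same fish held the symbols of 54 members, and 42 of them had a symbol in no other table, so that the named members are not an independent sample of the 100. Of the 62 members with a symbol 54 were lower and 3 higher. Of the 38 without a symbol 12 were lower and none higher, with a median log2 fold change of -0.11. Over all genes tested, 33.4% of those with a symbol were lower and 32.5% higher, against 14.8% and 12.1% of those without. The other genes of each list below were found through the same symbols. Their counts are therefore not an independent comparison either, and are to be read beside these shares. Of the 46 members that are not in the table selected on these fish, 15 were lower, none was higher and 31 did not pass. All 54 members in that table passed, 51 lower and 3 higher. The 46 are thus also selected by the result, and are not a check free of it.

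The largest group of named members were spectrins, plakins and other linkers of the cytoskeleton, with 9 members. Of these 8 were lower and 1 did not pass, with a median log2 fold change of -0.62. Of the 27 other genes of the same list 21 were lower and 1 higher, with a median of -0.52. DST, which encodes dystonin, a plakin that connects cytoskeletal filaments, had a pair of genes among the members. The longer one, Nfu_g_1_012338 (26901 nt), is listed as MACF1, a related plakin, in another table. It had 562, 524, 546 and 533 CPM in the wild fish (3, 5, 7 and 11, the order used for all values) and 1088, 988, 1042 and 996 CPM in the captive fish (A to D). Every wild fish was near the same level and far below every captive fish. The log2 fold change was -0.93 ± 0.05 (SE), with an adjusted p of 8.5e-07 from edgeR. The shorter, Nfu_g_1_014498 (25926 nt), was also lower, by a log2 fold change of -0.62 ± 0.05 and an adjusted p of 7.8e-06 from edgeR.

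SPTAN1, the alpha chain of the spectrin network under the neuronal membrane, was among the members of highest level per length, at 44.9 RPKM. It had 596, 602, 649 and 622 CPM in wild and 786, 772, 758 and 736 CPM in the captive fish. The groups did not overlap, and the log2 fold change of -0.31 ± 0.05 (SE, edgeR adjusted p = 0.00066) was smaller than that of most lower members. ANK3, which encodes ankyrin-G, the organiser of the axon initial segment, was present as Nfu_g_1_022882 (25744 nt) and Nfu_g_1_002768 (15140 nt). The longer had 284, 295, 313 and 307 CPM in wild and 446, 462, 412 and 437 CPM in the captive fish. The shorter had 68.7, 73.4, 71.7 and 80.5 CPM in wild and 143, 202, 150 and 173 CPM in the captive fish. Both fell without overlap of the groups, the longer by a log2 fold change of -0.55 ± 0.05 and the shorter by -1.18 ± 0.11 (SE, edgeR adjusted p = 3.9e-05 and 1.9e-05).

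SYNE1 encodes nesprin-1, a giant spectrin-repeat protein that anchors the nucleus to the cytoskeleton, and its pair of genes behaved unequally. Nfu_g_1_021820, at 30370 nt the longest member with a symbol, had 336, 387, 441 and 426 CPM in wild and 412, 435, 396 and 417 CPM in the captive fish. The groups overlapped, and the log2 fold change was -0.06 ± 0.08 (SE, edgeR adjusted p = 0.57). Nfu_g_1_018681 (26383 nt) had 186, 204, 247 and 231 CPM in wild and 457, 462, 453 and 426 CPM in the captive fish. Here every wild fish was far below every captive fish, with a log2 fold change of -1.05 ± 0.09 (SE, edgeR adjusted p = 1.1e-05).

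The motors had 2 members, both lower. DYNC1H1 encodes the heavy chain of cytoplasmic dynein, the motor of retrograde axonal transport, and had the highest level per length of all named members, at 62.3 RPKM. It had 686, 734, 750 and 714 CPM in wild and 1293, 1441, 1381 and 1318 CPM in the captive fish. No wild fish came near the captive range, and the ratio of the groups was 0.531, a log2 fold change of -0.91 ± 0.05 (SE, edgeR adjusted p = 1.1e-06). Of the 21 other motor genes tested 15 were lower and 1 was higher.

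All 3 members of the presynaptic active zone were lower, with a median log2 fold change of -0.29. Of the 16 other genes of the list 15 were lower and 1 higher, with a median of -0.58. PCLO and BSN encode piccolo and bassoon, scaffolds that organise the site of vesicle release. PCLO (Nfu_g_1_007978, 26976 nt) had 238, 279, 273 and 299 CPM in wild and 308, 352, 324 and 349 CPM in the captive fish, which was close to overlap and gave a log2 fold change of -0.29 ± 0.08 (SE, edgeR adjusted p = 0.012). The other PCLO gene, Nfu_g_1_011931 (18669 nt), had 232, 248, 244 and 269 CPM in wild and 297, 365, 336 and 363 CPM in the captive fish, with a log2 fold change of -0.46 ± 0.08 (SE, edgeR adjusted p = 0.0010). BSN (23546 nt) had 235, 259, 266 and 262 CPM in wild and 276, 300, 288 and 327 CPM in the captive fish. Its log2 fold change was -0.22 ± 0.07 (SE, edgeR adjusted p = 0.022), and it did not pass without wild fish 3, with an adjusted p of 0.056. RIMBP3B, in no list, fell more than these. It had 150, 157, 152 and 169 CPM in wild and 316, 375, 357 and 331 CPM in the captive fish, with a log2 fold change of -1.14 ± 0.07 (SE, edgeR adjusted p = 1.5e-06).

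Among ion channels and pumps the members ranged from no detected difference to a large one. UNC80, a subunit of the NALCN sodium leak channel complex that sets the resting excitability of neurons, had 60.3, 83.7, 60.4 and 60.8 CPM in wild and 136, 194, 160 and 190 CPM in the captive fish. Wild fish 5 stood above the other wild fish, yet all were below the captive fish, with a log2 fold change of -1.36 ± 0.14 (SE, edgeR adjusted p = 5e-05). ATP2B3, a calcium pump of the plasma membrane, was the second named member by level per length, at 53.6 RPKM. It had 894, 907, 1064 and 999 CPM in wild and 1280, 1224, 1241 and 1180 CPM in the captive fish, with a log2 fold change of -0.35 ± 0.06 (SE, edgeR adjusted p = 0.0016). KCNMA1, the pore of the large-conductance calcium-activated potassium channel, had 126.4, 165, 148 and 154 CPM in wild and 158, 157, 156 and 173 CPM in the captive fish. Its groups overlapped and the log2 fold change of -0.11 ± 0.08 did not pass (SE, edgeR adjusted p = 0.28).

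RYR1, a channel that releases calcium from internal stores and is best known in skeletal muscle, had 135, 135, 135 and 126.1 CPM in wild and 219, 273, 260 and 308 CPM in the captive fish. The wild fish were almost level and the captive fish spread, and the log2 fold change was -0.9957 ± 0.0923 (SE, edgeR adjusted p = 2.5e-05). The list of skeletal muscle markers held only RYR1 itself and TNNT3 among the genes tested, with summed levels between 135 and 155 CPM in wild and between 225 and 315 CPM in the captive fish. TNNT3, a troponin of fast muscle, went the other way, between 9.01 and 19.2 CPM in wild and between 4.35 and 6.845 CPM in the captive fish, a log2 fold change of 1.39 ± 0.25 (SE, edgeR adjusted p = 0.0015). A separate list of giant muscle genes held RYR1 and 1 other tested gene, which was lower, with a log2 fold change of -1.495. PKD1, which encodes polycystin-1, a large membrane receptor, had 31.3, 25.7, 23.6 and 34.7 CPM in wild and 71.7, 67.9, 68.9 and 74.7 CPM in the captive fish. The groups were far apart, with a log2 fold change of -1.30 ± 0.11 (SE, edgeR adjusted p = 1.6e-05).

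Endocytic receptors of the LDL receptor family and the CSMD proteins had 5 members, of which 3 were lower, 1 was higher and 1 did not pass, while all 4 other genes of the list were lower. LRP1 (Nfu_g_1_010200), a receptor for apolipoprotein E and other ligands, had 317, 328, 363 and 363 CPM in wild and 445, 549, 444 and 441 CPM in the captive fish. The groups did not overlap, and the log2 fold change was -0.45 ± 0.08 (SE, edgeR adjusted p = 0.0019). LRP1B had 56.5, 64.4, 67.4 and 67.1 CPM in wild and 93.4, 102.8, 92.0 and 93.6 CPM in the captive fish, and a log2 fold change of -0.58 ± 0.07 (SE, edgeR adjusted p = 0.00012). LRP2 encodes megalin, which takes up many ligands, and had 33.3, 34.7, 40.2 and 31.5 CPM in wild and 30.1, 45.8, 32.5 and 34.7 CPM in the captive fish, and with overlapping groups the log2 fold change was -0.04 ± 0.13 (SE, edgeR adjusted p = 0.85).

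The few members that were higher in wild fish changed by little. FAT3 encodes an atypical cadherin that shapes neuronal dendrites in the mouse. Its gene Nfu_g_1_003034 (17313 nt) had 166, 189, 190 and 170 CPM in wild and 134, 155, 141 and 155 CPM in the captive fish. All wild fish were above the captive fish, with a log2 fold change of 0.29 ± 0.07 (SE, edgeR adjusted p = 0.0086), and this was the only higher member that passed with each library left out in turn. CSMD2 had 87.0, 114, 110 and 119 CPM in wild and 91.0, 88.3, 82.6 and 88.8 CPM in the captive fish, with wild fish 3 inside the captive range. Its log2 fold change was 0.29 ± 0.09 (SE, edgeR adjusted p = 0.026), and it did not pass without wild fish 5, 7 or 11 or captive fish B, C or D, with adjusted p up to 0.072. ANKRD11, a regulator of chromatin, had 219, 225, 214 and 217 CPM in wild and 190, 207, 199 and 202 CPM in the captive fish, a log2 fold change of 0.13 ± 0.05 (SE, edgeR adjusted p = 0.044). It did not pass with any 1 of the 8 libraries left out, with adjusted p between 0.051 and 0.15.

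The adhesion receptors had 4 members, of which 3 were lower and 1, the FAT3 gene above, was higher, with a median log2 fold change of -0.70. Of the 55 other genes of the list 44 were lower and 4 higher, with a median of -0.60. The other FAT3 gene, Nfu_g_1_022120 (15861 nt), had 23.3, 22.8, 18.6 and 22.0 CPM in wild and 39.5, 38.8, 35.3 and 39.5 CPM in the captive fish. It thus moved against the first, with a log2 fold change of -0.82 ± 0.09 (SE, edgeR adjusted p = 5.5e-05). In the extracellular matrix both members were lower, and of the 21 other genes 13 were lower and 1 higher. LAMA2, a chain of laminin in basement membranes, had 55.7, 53.9, 48.2 and 56.3 CPM in wild and 91.1, 109, 104 and 90.6 CPM in the captive fish. The groups were well apart, with a log2 fold change of -0.88 ± 0.08 (SE, edgeR adjusted p = 2e-05).

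Ubiquitin ligases and deubiquitinases had 6 members, 5 of them lower, with a median log2 fold change of -0.61. Of the 18 other genes of the list 15 were lower and 1 higher, with a median of -0.58. BIRC6, a giant inhibitor of apoptosis that also transfers ubiquitin, showed the largest fall of all named members with groups apart, a rank taken over members averaging 100 counts or more. It had 51.1, 54.4, 60.8 and 61.7 CPM in wild and 140, 143, 164 and 146 CPM in the captive fish. Every wild fish was below every captive fish by a wide margin, with a ratio of the groups of 0.385 and a log2 fold change of -1.38 ± 0.08 (SE, edgeR adjusted p = 1.2e-06). ANKIB1, in no list, with ankyrin repeats and an IBR domain, had 167, 155, 141 and 200 CPM in wild and 209, 199, 162 and 171 CPM in the captive fish, and did not pass at a log2 fold change of -0.16 ± 0.12 (SE, edgeR adjusted p = 0.29).

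VPS13C, which transfers lipids between organelles, had 86.5, 95.4, 98.4 and 72.9 CPM in wild and 200, 196, 198 and 243 CPM in the captive fish. The log2 fold change was -1.24 ± 0.10 (SE, edgeR adjusted p = 1.3e-05), with the groups far apart. Of the 11 other BEACH and VPS13 genes 8 were lower and 1 higher, with a median of -1.02. DMXL2, in no list, or rabconnectin-3, which regulates the proton pump of vesicles, stood at 34.6 RPKM. It had 367, 431, 415 and 445 CPM in wild and 683, 769, 728 and 739 CPM in the captive fish, and a log2 fold change of -0.82 ± 0.07 (SE, edgeR adjusted p = 1.2e-05).

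Of 5 chromatin regulators among the members 4 were lower and 1, ANKRD11, was higher, with a median log2 fold change of -0.47. Of the 55 other genes of the list 45 were lower and 1 higher, with a median of -0.40. CHD9, a chromatin remodeller, had 109, 123, 125.1 and 129 CPM in wild and 232, 239, 238 and 248 CPM in the captive fish. The captive fish were almost level, and the log2 fold change was -0.98 ± 0.06 (SE, edgeR adjusted p = 2.1e-06). KMT2A, KMT2C and KMT2D, which methylate histone H3, had log2 fold changes of -0.44, -0.47 and -0.48 and were all lower. Both zinc finger and homeobox members were lower, and ZFHX4 had 74.5, 76.4, 71.4 and 77.9 CPM in wild and 108, 116, 109 and 104 CPM in the captive fish, with a log2 fold change of -0.54 ± 0.05 (SE, edgeR adjusted p = 4.1e-05).

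**Figure D4:**
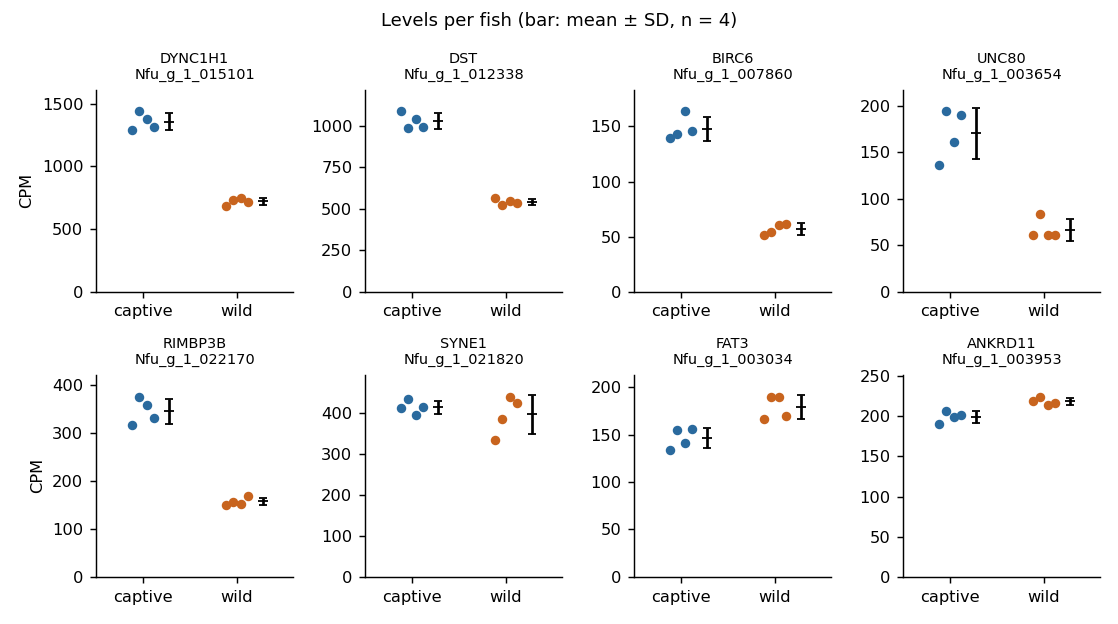
CPM per fish (vertical axes, from 0) is plotted for 8 members in captive (blue) and wild (orange) fish, with the mean and SD of each group (n = 4). The captive fish lie above the wild fish in DYNC1H1, DST, BIRC6, UNC80 and RIMBP3B, the groups overlap in SYNE1 (Nfu_g_1_021820), and the wild fish lie above in FAT3 (Nfu_g_1_003034) and ANKRD11.

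Among the members without a symbol some had the most extreme values, and they are named here after their values were seen. Nfu_g_1_019261, the longest of all at 88546 nt, was at 0.0778 RPKM the scarcest for its length of those described. It had 0.990, 2.03, 3.50 and 3.33 CPM in wild and 6.72, 10.3, 9.18 and 19.4 CPM in the captive fish, without overlap, and a log2 fold change of -2.21 ± 0.41 (SE). Its mean was 2.48 RPM in wild and 11.3 RPM in the captive fish, so that it is among the members only through the captive fish, and its difference is a description with no test. Nfu_g_1_011746 (15655 nt) had 7.99, 6.22, 3.91 and 6.79 CPM in wild and 49.6, 51.2, 56.4 and 43.9 CPM in the captive fish. The captive fish were close to each other and all far above the wild fish, with a log2 fold change of -3.01 ± 0.18 (SE, edgeR adjusted p = 1.5e-06), the lowest of the members.

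Other members varied widely between fish of the same group. Nfu_g_1_017699 (14453 nt) had 3.04, 4.33, 5.70 and 5.33 CPM in wild and 12.9, 6.57, 80.7 and 25.6 CPM in the captive fish. Captive fish B was just above the wild fish and fish C far above all others, so that the log2 fold change of -2.77 had an SE of 0.69 and was -1.725 without fish C. Its mean was 4.64 RPM in wild and 31.3 RPM in the captive fish, and its difference is likewise a description with no test. Nfu_g_1_002766 (16613 nt) had 71.1 CPM in wild fish 5 and between 3.82 and 7.54 CPM in the other fish of both groups, and did not pass (edgeR adjusted p = 0.14). The remaining 34 members without a symbol had log2 fold changes between -0.89 and 0.27.

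Symbols shared by a pair of members allowed a comparison within each fish, which does not depend on the scaling of libraries. There were 7 such pairs, and the log2 ratio of counts of the longer over the shorter gene was compared between the groups with exact two-sided permutation tests, chosen after the data had been seen. With 4 against 4 fish the smallest p these tests allow is 0.0286, which over 7 pairs can be adjusted to 0.05 for 4 pairs at that p, and so no pair was under an adjusted p of 0.05. For SYNE1 the log2 ratio was 0.87 ± 0.04 (SD, n = 4) in wild and -0.12 ± 0.07 (SD, n = 4) in captive fish, a difference of 0.99 (exact p = 0.0286). For FAT3 it was 3.05 ± 0.22 in wild and 1.93 ± 0.11 in captive fish, a difference of 1.11 (exact p = 0.0286). For ANK3 it was 2.03 ± 0.08 in wild and 1.41 ± 0.19 in captive fish, a difference of 0.62 (exact p = 0.0286).

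In these 3 pairs the groups did not overlap and the longer gene held a larger part of the pair in wild fish. The DST pair did not overlap either and moved the other way. It had 1.16 ± 0.09 in wild and 1.46 ± 0.07 in captive fish, a difference of -0.30 (exact p = 0.0286). Its longer gene is also listed as MACF1, and whether this pair are copies was not tested. The pairs of PCLO, LRP1 and SPEG overlapped, with differences of 0.16, 0.13 and -0.04 and exact p of 0.0571, 0.171 and 0.714. Reads were assigned to at most 1 place in the genome, and how near-identical stretches of a pair shared reads was not tested.

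**Figure D5:**
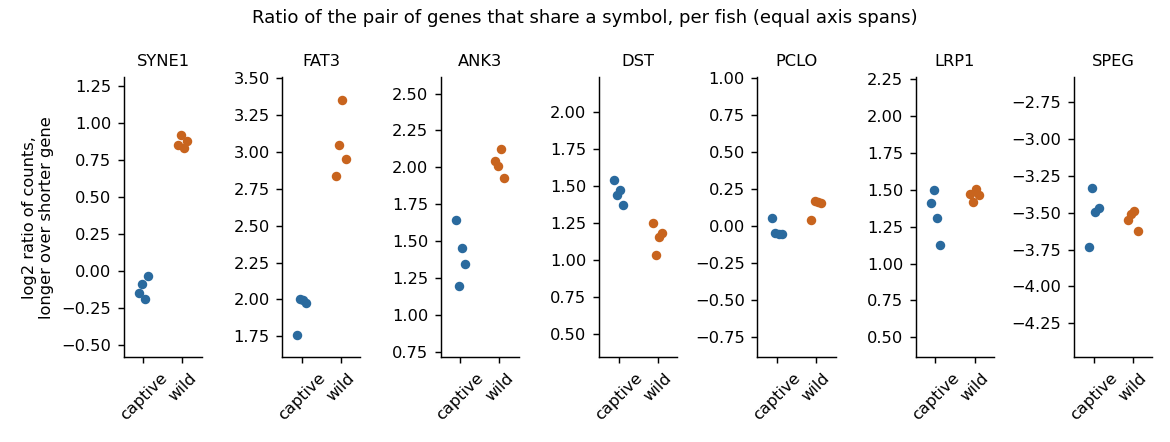
The log2 ratio of counts of the longer over the shorter gene of each pair of members that share a symbol is plotted for each captive (blue) and wild (orange) fish, with vertical axes of equal span. The groups are apart in SYNE1, FAT3 and ANK3, with wild fish above, and in DST, with wild fish below, and they overlap in PCLO, LRP1 and SPEG.

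Other genes with the symbol of a member were shorter. There were 15 such genes, of 13 symbols, with a median length of 7782 nt. Of these 9 were lower, 2 were higher and 4 did not pass, with a median log2 fold change of -0.35. In 12 of the 17 combinations of a member and a shorter gene the shorter one had the higher fold change. For BIRC6 the gene Nfu_g_1_016646 (2667 nt) had 60.7 ± 3.35 CPM in wild and 40.7 ± 1.76 CPM in the captive fish (SD, n = 4). It rose by a log2 fold change of 0.58 ± 0.06 (SE, edgeR adjusted p = 6.6e-05), whereas the long gene fell by 1.38. For ANK3 the gene Nfu_g_1_002826 (6381 nt) had 295 ± 14.8 CPM in wild and 223 ± 8.95 CPM in the captive fish (SD, n = 4), and rose by a log2 fold change of 0.40 ± 0.06 (SE, edgeR adjusted p = 0.00032), whereas both long genes fell. Whether such genes are true copies or fragments of 1 gene model was not tested.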

How the data were processed

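The deposited tables hold whole read counts per gene, RPM and RPKM for the 8 libraries. To make the counts, the authors used bcl2fastq 2.20.0.422 for base call conversion, TopHat2 2.1.0 for alignment against the repeat-masked genome of the species, and featureCounts 1.6.5 in its reverse-stranded mode. The RPM deposited by the authors equal the counts divided by the column total to within 5e-12. The RPKM deposited by the authors further divide by transcript length. No column of values was left unused. Counts were analysed as deposited. Genes counted at least 1 time in each fish (19517) were scaled by TMM and tested with edgeR 4.0.16 (glmQLFit, glmQLFTest, condition as the only term) in R 4.3.3, with Benjamini-Hochberg adjustment over all of them and a threshold of 0.05. The common biological coefficient of variation was 0.161. Labels do not say more of the fish than given here. The p-values of edgeR set the difference between groups against the spread between these fish, estimated with information shared over genes. The script was tested on simulated data. Alternatives were DESeq2 1.42.0, limma 3.58.1 on log2(RPM + 0.5), other scalings and filters, thinned counts, a test against a 1.5-fold change, RNA integrity as a covariate, removal of the length trend (loess, span 0.3), other limits for the members and leaving out each library. The numbers of the fish are not shared between groups and no fish were paired. Exact permutation tests were run with SciPy 1.17.1, and figures drawn with matplotlib 3.10.9.

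Members and lists were chosen with earlier results of these data known. Genes named with full values were the 10 longest with a symbol, the 10 largest rises and falls past the threshold with groups apart and a mean of at least 100 counts, the 5 of highest RPKM, the 5 with a fold change nearest 0, those at the limit of length, the member of smallest p in each direction in each of 16 lists, and other genes of the same symbol. Symbols were read from the supplementary tables of the study, which pair them with the gene identifiers. Coordinates and sequences are not given, since the reference table at hand uses other identifiers and another assembly. The levels of 1 further list of cell type markers are not reported here.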

Additional observations from a re-analysis of the deposited data

Results flagged for a closer look

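In 9 cases 1 fish stood far from the other 3 of its group, by a gap above the critical value of Dixon's test. Chance gives such a case in about 1 in 20 groups. Over all 100 members, 7 wild and 8 captive groups had such a fish. LRP1 was at 549 CPM in captive fish B and between 441 and 445 CPM in the other captive fish. LRP1B was at 102.8 CPM in the same fish and between 92.0 and 93.6 CPM in the others. VPS13C was at 243 CPM in captive fish D and between 196 and 200 CPM in the other captive fish, and KCNMA1 was at 173 CPM in that fish and between 156 and 158 CPM in the others. UNC80 was at 83.7 CPM in wild fish 5 and between 60.3 and 60.8 CPM in the other wild fish, and RYR1 was at 126.1 CPM in wild fish 11 and at about 135 CPM in the others. The log2 ratio of the FAT3 pair was 1.76 in captive fish A, with the other captive fish between 1.98 and 2.00. That of the PCLO pair was 0.0521 in captive fish A, with the others between -0.06 and -0.05, and 0.0370 in wild fish 3, with the others between 0.15 and 0.17.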

How the results depend on the processing

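The count of 66 lower members was between 63 and 66 with DESeq2, limma, other scalings, other filters and thinned counts, and between 63 and 67 with each library left out. With other limits of the mean RPM it was 65 (at least 1) and 72 (at least 20). Of the 69 calls, 63 passed in the same direction with every library left out in turn, 62 of them lower. The count of higher members was 5 with limma, 6 with upper quartile scaling and between 1 and 2 with 1 library left out. Against a 1.5-fold change 23 members were lower and 0 higher, with 7.15% of all genes tested lower. With RNA integrity as a covariate 2 were lower and 0 higher and the median log2 fold change was -0.26. With the length trend removed 28 were lower, 28 higher and the median was 0.0143. With libraries left out the median was between -0.53 and -0.41. The ratio of the mean share of counts in wild over captive fish was 0.725, between 0.715 and 0.735 with libraries left out, and 0.748 without the 5 members of highest counts.

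Of the named members, with the length trend removed the log2 fold change turned positive for SYNE1 (Nfu_g_1_021820, 0.58), LRP2 (0.53), ANKIB1 (0.35), BSN (0.35), PCLO (Nfu_g_1_007978, 0.32, and Nfu_g_1_011931, 0.0408), KCNMA1 (0.31), ATP2B3 (0.18), SPTAN1 (0.13), LRP1 (Nfu_g_1_010200, 0.12) and ANK3 (Nfu_g_1_022882, 0.0455). Among these, SYNE1, LRP2, ANKIB1, BSN, PCLO (Nfu_g_1_007978), KCNMA1 and ATP2B3 passed as higher, with edgeR adjusted p between 0.00043 and 0.049. The others in this list did not pass. With RNA integrity as a covariate the log2 fold change turned positive for LRP2 (0.63), SYNE1 (Nfu_g_1_021820, 0.55), KCNMA1 (0.42), PCLO (Nfu_g_1_007978, 0.18), BSN (0.0770) and LRP1 (Nfu_g_1_010200, 0.0016). None of the positive values with this covariate passed, the smallest edgeR adjusted p being 0.33 for SYNE1. LRP2, this SYNE1 gene and KCNMA1 did not pass without the covariate either. The cause of these changes, beyond the construction of each alternative, was not tested. Over the 8 fish left out in turn, an alternative chosen after seeing the data, the differences between pairs kept their sign for SYNE1 (0.96 to 1.02), FAT3 (1.01 to 1.18), ANK3 (0.55 to 0.70) and DST (-0.33 to -0.26). No paired analysis was possible because the groups share no replicate numbers. Members of few counts are the least certain, the lowest count of a member in any library being 14.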
